A study of Homo sapiens with 18 samples.

Results

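The 10 genes described here were AXIN2, NKD1, NKD2, RNF43, ZNRF3, NOTUM, SP5, SP8, LGR4 and LGR5, a set of β-catenin feedback targets and receptors for R-spondins. They were taken by name from the gene count table, which listed 57133 genes, and each of the 10 had a row. RNA-seq was performed on PGP1, a human induced pluripotent stem cell (PSC) line, and on PCGF6-KO cells derived from it. PCGF6 is a Polycomb group RING finger protein that belongs to the variant complex PRC1.6, and the question was which genes change their expression when it is lost. Wild-type (WT) cells gave 2 libraries, and each of the PCGF6-KO clones KO1 and KO2 gave 2 libraries. Both clones carried CRISPR-Cas9 deletions in the first exon of PCGF6 on both alleles. The deletions differed in size between the clones, and each was represented by a single clone. WT and PCGF6-KO cells alike were grown undifferentiated in mTeSR1 medium on Matrigel, with no WNT agonist or differentiation step named for these libraries. The labels do not say whether the libraries of a group came from separate cultures, so each p-value measures only the spread between these libraries.

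WNT proteins bind Frizzled and LRP receptors at the cell surface and stop the destruction complex from degrading β-catenin, which then enters the nucleus and drives transcription with TCF/LEF factors. Among the genes it drives are several that feed back on the pathway, so their transcripts are widely used to read out its activity. AXIN2 is a scaffold of the destruction complex, NKD1 and NKD2 bind Dishevelled, NOTUM is a secreted enzyme that removes the lipid from WNT proteins, and RNF43 and ZNRF3 are membrane ubiquitin ligases that clear Frizzled receptors. LGR4 and LGR5 bind R-spondins, which inactivate RNF43 and ZNRF3 and so raise the sensitivity of a cell to WNT. SP5 and SP8 are related zinc-finger transcription factors that act downstream of WNT, and in the embryo SP5 is known from the primitive streak.

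The promoter of SP5, the member with the largest change, held several matches to the letters that TCF/LEF factors recognise. The 250 bases before the annotated start were available for 5 members (SP5, SP8, NKD2, LGR4 and RNF43, the last with 2 entries) in RefSeq sequences of build GRCh38.p14. For AXIN2, NKD1, ZNRF3, NOTUM and LGR5 no sequence was used. The windows were searched on both strands for CTTTGAT and CTTTGAA, the consensus of TCF/LEF, and the letters in capitals below mark each match on either strand. The SP5 window lay on the plus strand at chr2:170715087-170715336, that of SP8 on the minus strand at chr7:20786887-20787136 and that of NKD2 on the plus strand at chr5:1008552-1008801, and all are written 5′ to 3′ in the direction of the gene. SP5 and SP8 are shown because they were the members with a match, and NKD2 as a member without one.
SP5: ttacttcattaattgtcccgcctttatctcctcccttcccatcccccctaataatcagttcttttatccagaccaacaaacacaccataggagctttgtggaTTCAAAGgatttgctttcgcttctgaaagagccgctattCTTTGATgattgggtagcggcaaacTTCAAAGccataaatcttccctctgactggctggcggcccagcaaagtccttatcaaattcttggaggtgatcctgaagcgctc
SP8: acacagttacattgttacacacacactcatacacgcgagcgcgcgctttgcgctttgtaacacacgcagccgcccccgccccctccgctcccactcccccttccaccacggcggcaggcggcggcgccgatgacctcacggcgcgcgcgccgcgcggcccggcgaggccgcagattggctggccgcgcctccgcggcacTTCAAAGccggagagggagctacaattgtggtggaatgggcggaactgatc
NKD2: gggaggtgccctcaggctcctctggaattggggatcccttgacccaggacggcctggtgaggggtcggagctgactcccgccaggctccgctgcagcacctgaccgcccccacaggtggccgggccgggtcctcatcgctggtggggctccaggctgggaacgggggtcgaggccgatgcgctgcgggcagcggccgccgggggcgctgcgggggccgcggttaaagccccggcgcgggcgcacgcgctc
The SP5 window held 3 matches, which began 148, 109 and 84 bases before the start, the middle one on the strand of the gene and the others on the opposite strand. The SP8 window held 1 match, 51 bases before the start, and the windows of NKD2, LGR4 and RNF43 held 0. RNF43 rose all the same in PCGF6-KO against WT (log2 fold change 4.72), whereas NKD2 and LGR4 stayed near WT. Whether matches go with the changes was not tested. Of 35116 promoters of the same length, 5.94% held at least 1 match and 7 held 3 or more. The SP5 window was also poor in G and C, at 45.6% against a median of 58.0% over all promoters, whereas those of SP8 and NKD2 stood at 68.0% and 75.6%. Neither the E-box CACGTG, which MYC and MAX bind, nor the E2F letters GCGGGAA occurred in any of the 6 windows. These letters were in 6.34% and 5.52% of all promoters, and a match describes the sequence and not a bound site.

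Counts per library ranged from 15877396 to 18918609 over genes, and 17672 genes had enough counts to be tested. PCGF6 itself had 268 and 300 counts in WT, 99 and 103 in KO1 and 187 and 159 in KO2, so that the WT libraries held the most. The deletions removed part of 1 exon, and reads from the rest of the gene are still counted. The pluripotency marker POU5F1 held 24295 and 25011 counts in WT and between 22722 and 31072 in the PCGF6-KO libraries. By the calling rule given below, 4 of 10 pluripotency markers fell while none rose. Over all genes tested, 8.70% were called lower and 14.9% higher. ZFP42 fell the most of the markers, from 304 and 329 counts in WT to at most 2 in each PCGF6-KO library. In edgeR's quasi-likelihood test 2 pluripotency markers were higher and 6 lower at an unadjusted p under 0.05, and DESeq2 called 0 higher and 4 lower.

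A gene was called where the Benjamini-Hochberg adjusted p of edgeR's quasi-likelihood test was under 0.05 and the log2 fold change was over 0.6 in either direction. In PCGF6-KO (n = 4) against WT (n = 2), 8 of the 10 genes rose and none fell, where 23.6% of all genes tested were called, 14.9% higher and 8.70% lower. The genes that rose were AXIN2, NKD1, RNF43, ZNRF3, NOTUM, SP5, SP8 and LGR5. NKD2 and LGR4 did not pass. At an unadjusted p under 0.05 the count of lower members was also 0, as it was with DESeq2. The median log2 fold change was 3.15 over the 10 genes and 0.00 over all genes tested. All 10 passed the filter on low counts, but SP5, NOTUM and LGR5 did so only through the PCGF6-KO libraries, in which they were high.

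The comparisons of each clone with WT use the same WT libraries and are given side by side. In KO1 against WT 8 members rose and none fell, with 24.8% of all genes called (16.0% higher and 8.80% lower). In KO2 against WT 8 rose and none fell, with 29.4% called (16.9% higher and 12.5% lower). Over the 10 genes the median difference from WT on the log2 scale was 3.01 in KO1 and 3.27 in KO2. In both clones NKD2 and LGR4 were the members that did not pass. No member was lower at an unadjusted p under 0.05 in KO2, and 1 was in KO1, which is LGR4. DESeq2 called 0 members lower in either clone.

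**Figure D1:**
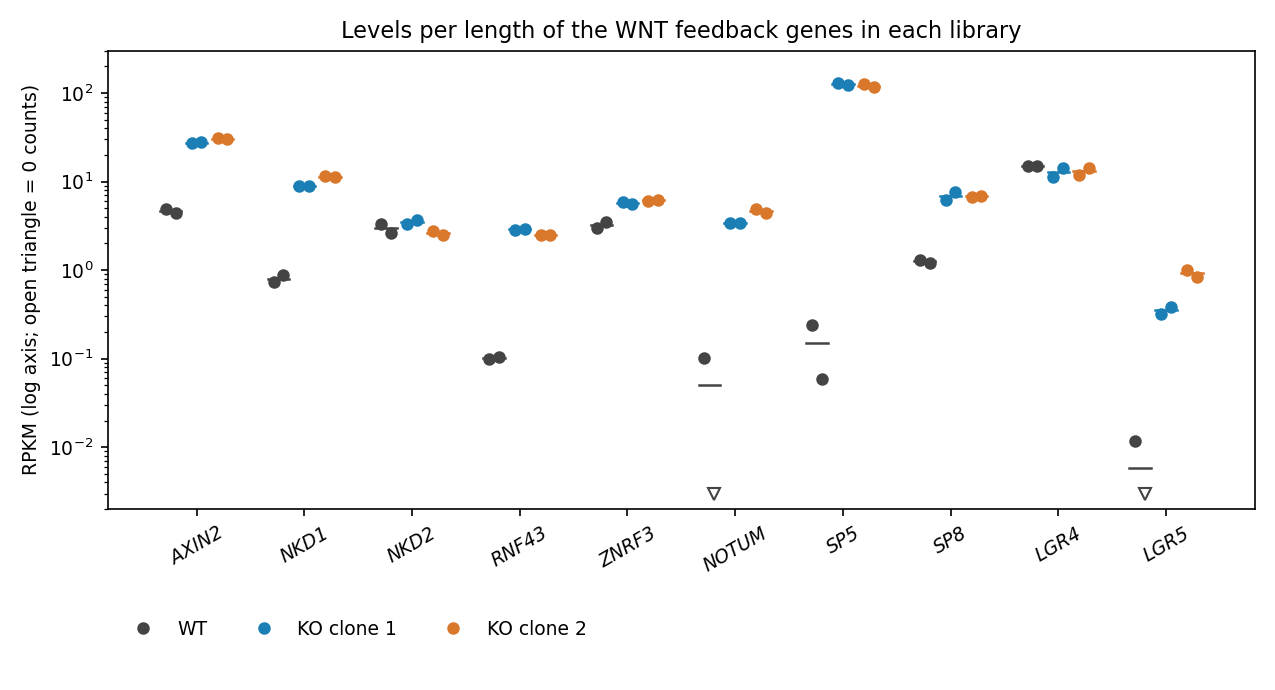
Level per length (RPKM, reads scaled to gene length and library size, on a log axis) of each of the 10 genes in every library, with points for libraries, horizontal lines for group means and open triangles for libraries with 0 counts. In 8 genes all PCGF6-KO points lie above both WT points, NKD2 overlaps, and the LGR4 points of PCGF6-KO lie at or below 14.4 RPKM against 14.9 in WT. The share of all genes tested that separate in this way was not computed.

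SP5 showed the largest rise. The WT libraries held 8 and 2 reads of SP5, those of KO1 held 5098 and 4637 and those of KO2 held 4692 and 3836. WT was near zero and every PCGF6-KO library was far above it, with no overlap. On the log2 scale SP5 was higher by 9.68 (SE 0.21, edgeR adjusted p = 1.81e-08) in PCGF6-KO than in WT, which ranked it 33rd of 17672 genes by size. The ratio of pooled counts scaled to library size was 842 (exact 95% interval 458 to 1757, counting error only). The fitted value rested on few WT reads: it was 10.97 without WT replicate 1 and 9.0 without WT replicate 2. Per length, SP5 lay above 7.72% of the genes tested in WT and above 98.8% and 98.5% of them in KO1 and KO2. Its promoter is the one above with 3 TCF/LEF matches.

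SP8, the paralog of SP5, rose less and from a measurable level. It held 79 and 75 counts in WT, 440 and 510 in KO1 and 456 and 407 in KO2. The lowest PCGF6-KO library was thus far above both WT libraries. SP8 rose by a log2 fold change of 2.44 (SE 0.13, edgeR adjusted p = 1.92e-06), and it was 2.45 in KO1 (SE 0.14, edgeR adjusted p = 3.71e-14) and 2.43 in KO2 (SE 0.14, edgeR adjusted p = 3.79e-14). In WT SP8 was the higher of the pair per length, at 1.26 ± 0.07 RPKM (SD, n = 2) against 0.148 ± 0.128 for SP5. In PCGF6-KO this order turned, with 6.83 ± 0.56 RPKM for SP8 and 124 ± 5.63 for SP5 (SD, n = 4).

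AXIN2, the feedback scaffold of the destruction complex, had 415 and 388 counts in WT, 2726 and 2636 in KO1 and 2909 and 2539 in KO2. Every PCGF6-KO library held several times the WT counts. AXIN2 rose by a log2 fold change of 2.64 (SE 0.09, edgeR adjusted p = 1.89e-07) in PCGF6-KO against WT. It was 2.56 in KO1 (SE 0.07, edgeR adjusted p = 4.18e-20) and 2.71 in KO2 (SE 0.07, edgeR adjusted p = 8.77e-21). AXIN1, which does the same work in the destruction complex but is not a feedback target, had a log2 fold change of 0.07 (95% interval -0.07 to 0.22).

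NKD1 and NKD2 encode related Dishevelled-binding inhibitors, and their values separated. NKD1 counts were 206 and 256 in WT, 2930 and 2848 in KO1 and 3628 and 3148 in KO2. The PCGF6-KO libraries were all above WT, and those of KO2 held the most. The log2 fold change of NKD1 was 3.66 (SE 0.16, edgeR adjusted p = 6.85e-07) in PCGF6-KO against WT, with 3.47 in KO1 and 3.82 in KO2. NKD2 held 155 and 127 counts in WT, 185 and 191 in KO1 and 145 and 114 in KO2, so its groups overlapped once scaled to library size. Its log2 fold change in PCGF6-KO against WT was 0.04, with a 95% interval from -0.39 to 0.48 (edgeR adjusted p = 0.878). In KO1 it was 0.24 (interval -0.07 to 0.54) and in KO2 it was -0.18 (interval -0.50 to 0.14). The change of NKD1 lay outside these intervals.

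The paired ubiquitin ligases both rose, RNF43 from a much lower level than ZNRF3. RNF43 held 12 and 13 counts in WT, 409 and 396 in KO1 and 335 and 301 in KO2. WT and PCGF6-KO libraries were far apart, with a pooled ratio of 26.6 (exact 95% interval 17.9 to 41.2). RNF43 had a log2 fold change of 4.72 (SE 0.18, edgeR adjusted p = 3.56e-07). ZNRF3 held 335 and 405 counts in WT, 775 and 712 in KO1 and 768 and 688 in KO2. Its PCGF6-KO libraries did not overlap WT, and its change was the smallest among the 8 members that rose. ZNRF3 had a log2 fold change of 0.88 (95% interval 0.66 to 1.09, edgeR adjusted p = 0.000122). The intervals of the ligases did not meet, since that of RNF43 ran from 4.30 to 5.13.

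NOTUM, the WNT deacylase, was almost without reads in WT. NOTUM held 5 and 0 counts in WT, 196 and 186 in KO1 and 266 and 214 in KO2. All PCGF6-KO libraries were above WT, and both KO2 libraries were above both KO1 libraries. This was a log2 fold change of 6.25 (SE 0.51, edgeR adjusted p = 2.37e-05), and the pooled ratio was 79.5 (exact 95% interval 33.9 to 246). The single WT library with reads set the fitted size, which was 10.74 without WT replicate 1 and 5.27 without WT replicate 2.

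LGR4 and LGR5, both receptors for R-spondins, went separate ways. LGR5, which also marks stem cells of the intestine, held 1 and 0 counts in WT, 32 and 37 in KO1 and 95 and 71 in KO2. It was near zero in WT, and KO2 lay above KO1. The pooled ratio was 108 with an exact 95% interval from 19.3 to 4300 in PCGF6-KO against WT, 61.0 (10.6 to 2444) in KO1 and 160 (28.3 to 6363) in KO2. The test called it higher (log2 fold change 6.47, edgeR adjusted p = 0.00107), but with 1 read in WT the fitted size depends on the prior count and is not a measure of the fold. It was 8.88 without WT replicate 1 and 5.61 without WT replicate 2.

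LGR4 was by contrast the member with the most reads in WT. It held 1538 and 1572 counts in WT, 1366 and 1628 in KO1 and 1379 and 1460 in KO2. Scaled to library size the PCGF6-KO libraries lay below WT without overlap, though by little. The log2 fold change was -0.20 (95% interval -0.44 to 0.03, edgeR adjusted p = 0.160). In KO1 against WT the difference of -0.23 had an edgeR adjusted p of 0.0368 but was under the fold threshold, and in KO2 it was -0.18 (edgeR adjusted p = 0.101). LGR6, the remaining receptor of this family, held 51 and 54 counts in WT and between 21 and 42 in PCGF6-KO, and was called lower (log2 fold change -0.77, edgeR adjusted p = 0.0414). This call was lost with DESeq2 (adjusted p = 0.0942) and with a replicate block (edgeR adjusted p = 0.0704).

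**Figure D2:**
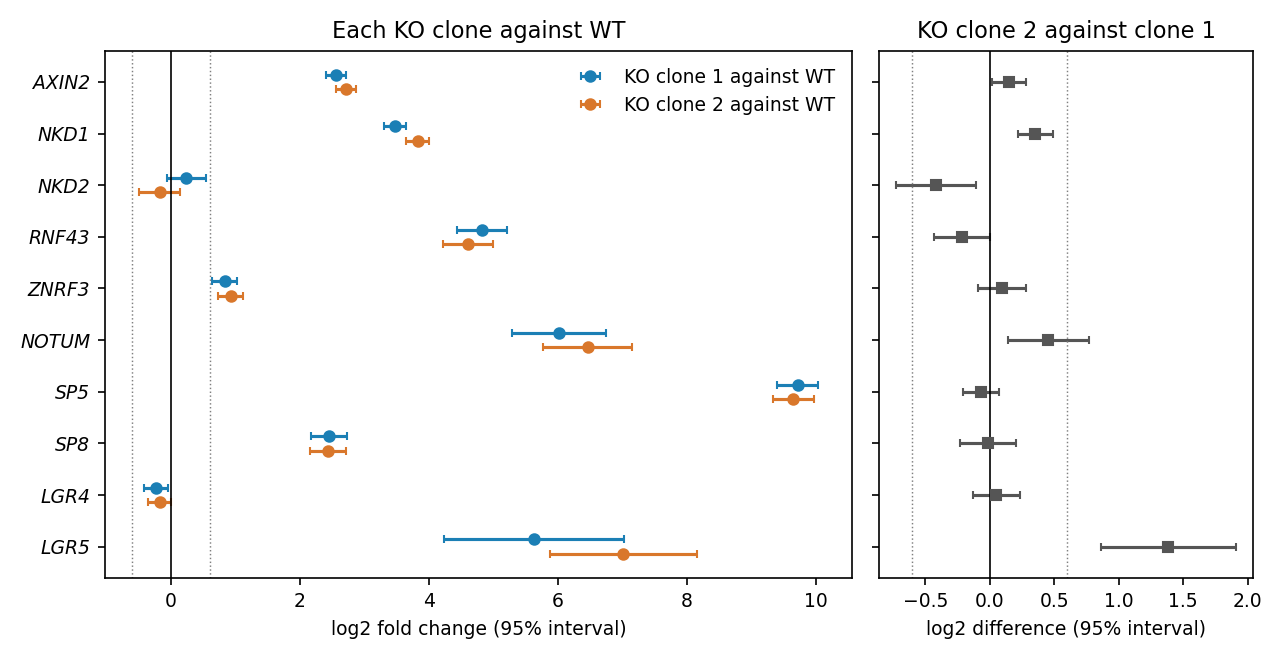
Left, log2 fold change with 95% interval of each of the 10 genes in KO1 (blue) and KO2 (orange) against WT; right, the log2 difference of KO2 against KO1; dotted lines mark the fold threshold of 0.6. SP5 stands farthest right in both clones at 9.71 and 9.65, NKD2 and LGR4 lie near 0, and LGR5 is the gene whose difference between the clones, 1.38, lies beyond the threshold.

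KO2 was also tested directly against KO1. Of the 10 genes, 1 was higher in KO2 and none was lower, where 7.87% of all genes were called, 3.73% higher and 4.14% lower. At an unadjusted p under 0.05 the lower member was 1, NKD2, and DESeq2 called 0 lower. The gene that was higher was LGR5, with a log2 difference of 1.38 (95% interval 0.86 to 1.91, edgeR adjusted p = 0.000251). NKD1 (0.35, edgeR adjusted p = 0.000256) and NOTUM (0.45, edgeR adjusted p = 0.0374) were higher in KO2 by less than the fold threshold. NKD2 stood lower in KO2 by a log2 difference of -0.41 (95% interval -0.72 to -0.11), with an edgeR adjusted p of 0.0531. The intervals of SP5 (-0.20 to 0.07), SP8 (-0.23 to 0.20), ZNRF3 (-0.09 to 0.28) and LGR4 (-0.13 to 0.24) all lay within the fold threshold, which bounds any difference between the clones for these genes. R-spondins, the ligands of LGR5, stood apart between the clones in both directions. RSPO3 was higher in KO2 by 1.63 and RSPO2 by 1.23 on the log2 scale (edgeR adjusted p = 5.36e-11 and 3.07e-06), whereas RSPO4 was lower in KO2 with a log2 difference of -0.72 (edgeR adjusted p = 6.31e-05).

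The order of the members by level per length differed between WT and PCGF6-KO. In WT the order ran from LGR4 (14.9 ± 0.03 RPKM, SD, n = 2) to AXIN2 (4.66 ± 0.30), ZNRF3 (3.22 ± 0.38), NKD2 (2.97 ± 0.47), SP8 (1.26 ± 0.07) and NKD1 (0.803 ± 0.109). ZNRF3 and NKD2 overlapped in their libraries, and so did the neighbours among SP5, RNF43, NOTUM and LGR5, which closed the order at or under 0.148 RPKM. In KO1 SP5 led with 127 ± 3.97 RPKM, followed by AXIN2 (27.5 ± 0.33), LGR4 (12.7 ± 2.02) and NKD1 (8.89 ± 0.14). In KO2 the same 4 genes led in the same order, at 121 ± 6.76, 30.5 ± 0.30, 13.2 ± 1.67 and 11.4 ± 0.16 RPKM. LGR5 was last in both clones, at 0.353 ± 0.049 RPKM in KO1 and 0.920 ± 0.110 in KO2. The neighbours NKD2 and NOTUM overlapped in KO1, and NKD2 and RNF43 overlapped in KO2. All RPKM values rest on the gene lengths in the table.

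Shares within a family of paralogs do not depend on how libraries are scaled to each other, so these were computed from counts divided by gene length. AXIN2 made up 30.4% and 28.8% of the AXIN1 and AXIN2 sum in the WT libraries and from 70.6% to 72.2% in the PCGF6-KO libraries. NKD1 made up 18.0% and 25.0% of the NKD family in WT, 72.4% and 71.2% in KO1 and 80.6% and 82.1% in KO2. Per length, AXIN2 and NKD1 each passed from the minor to the major part of the sum. For NKD1 this rests on the gene lengths, 17425 bases against 2885 for NKD2. Before division by length, NKD1 already held more counts than NKD2 in WT (206 and 256 against 155 and 127). RNF43 took 3.22% and 2.89% of the sum with ZNRF3 in WT and from 28.8% to 34.1% in PCGF6-KO, so ZNRF3 kept the larger part. SP5 took 15.5% and 4.59% of the sum with SP8 in WT and from 94.3% to 95.4% in PCGF6-KO. LGR5 took 0.0750% and 0% of the sum with LGR4 and LGR6 in WT and at most 7.44% in PCGF6-KO. In none of the 5 families did WT and PCGF6-KO libraries overlap, and each gave p = 0.133 in a two-sided exact permutation test (adjusted p = 0.133), the smallest p that 4 libraries against 2 allow. Nothing here can pass 0.05, and the shares are therefore descriptive.

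The genes most like AXIN2 in their profile were found by the Euclidean distance between centred log2 CPM values over the 6 libraries, among 13862 genes. The nearest was DACT1 (0.114), which encodes another Dishevelled-binding protein, followed by ARHGAP29 (0.160), P3H2 (0.169), QPCT (0.169) and MSRB3 (0.175). Their log2 fold changes in PCGF6-KO against WT ran from 2.61 to 2.79, and such closeness follows from the distance used. SP8 was the nearest of the other members, at 0.351 and rank 29. The rest lay farther off, from NKD1 at rank 496 to NOTUM at rank 12591 and SP5 at rank 13850.

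Of the other genes of the WNT pathway, 67 of 77 listed could be tested. In PCGF6-KO against WT 26 of them rose and 8 fell, with a median log2 fold change of 0.32. Over all genes tested, 14.9% were called higher and 8.70% lower. The destruction complex and its transducers had 12 genes tested and none was called by edgeR or DESeq2. At an unadjusted p under 0.05, 1 was higher (DVL2) and 4 were lower (APC, CSNK1A1, DVL1 and TNKS2). These also had an edgeR adjusted p under 0.05 and missed the call by the fold threshold alone. CTNNB1, which encodes β-catenin itself, had a log2 fold change of -0.09 (95% interval -0.25 to 0.08). The receptors split, with 3 higher and 3 lower of 13 (2 higher and 1 lower with DESeq2 or with a replicate block), and so did the nuclear effectors, with 3 higher and 2 lower of 9. At the level of ligands 8 of 11 WNT genes tested rose (19 were listed), as did 2 of 3 R-spondins. WNT3A, WNT5B, WNT8A, WNT10B and WNT11 passed the filter on low counts only through the PCGF6-KO libraries. RSPO2, RSPO3 and the receptor FZD10 did so too, and genes that passed this way could hardly be called lower. RSPO3, which held 1 and 0 counts in WT, held 209 and 195 in KO1 and 625 and 524 in KO2, and RSPO2 rose from 9 and 13 counts in WT to 133 and 100 in KO1 and 300 and 203 in KO2. WLS, the carrier that WNT proteins need to leave the cell, rose from 52 and 37 counts to between 3954 and 4806 in PCGF6-KO (log2 fold change 6.51, edgeR adjusted p = 1.14e-08), and PORCN, which adds their lipid, fell by 0.76 on the log2 scale.

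All 5 further targets of the pathway rose (0 were lower at an unadjusted p under 0.05 or by DESeq2). The largest changes among these were APCDD1, an inhibitor at the membrane (log2 fold change 4.37), TNFRSF19 (4.01) and BAMBI, a decoy receptor of the TGF-β family (2.38). Of 12 secreted inhibitors tested, 4 rose and 2 fell. The 4 that rose (DKK1, DKK2, DKK4 and SFRP4) passed the filter on low counts only through the PCGF6-KO libraries. DKK1, which blocks LRP receptors, was higher by 7.92 on the log2 scale, whereas SFRP1, which binds WNT proteins, fell from 10494 and 12156 counts in WT to between 297 and 359 in PCGF6-KO. SFRP2 fell by 0.66 on the log2 scale (edgeR adjusted p = 0.0119).

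**Figure D3:**
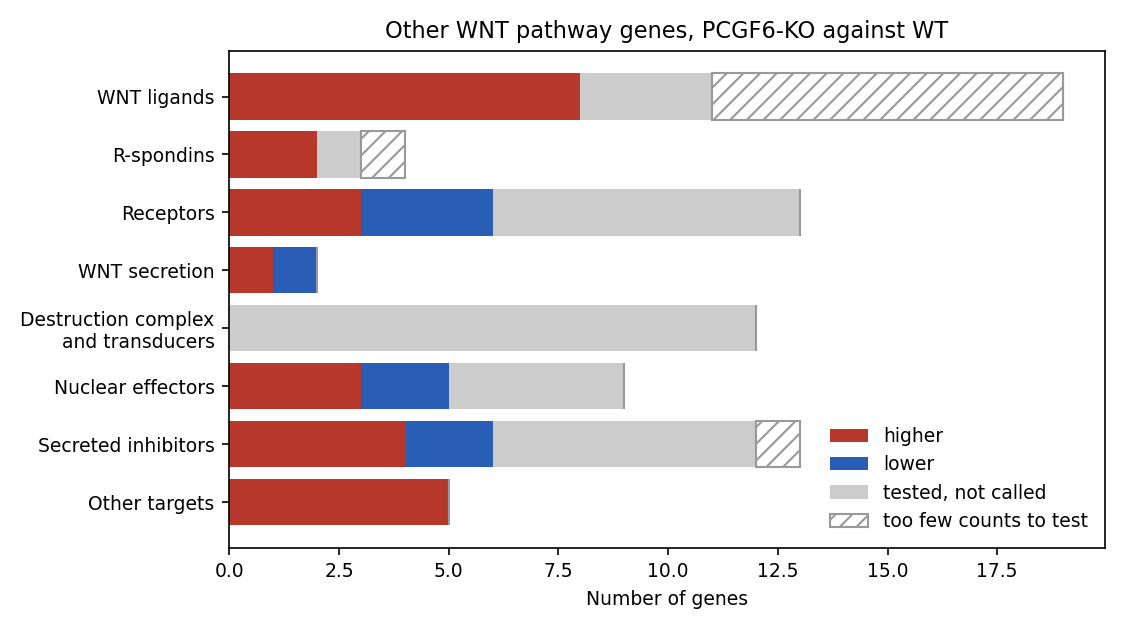
Number of other WNT pathway genes that were higher (red), lower (blue) or tested and not called (grey) in PCGF6-KO against WT, by role, with hatched bars for genes with too few counts to test. WNT ligands (8 of 11 tested) and further targets (5 of 5) hold the most genes that rose, and none of 12 genes of the destruction complex and its transducers was called. Several of the ligands that rose passed the filter on low counts only through the PCGF6-KO libraries.

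Markers of cells that leave the pluripotent state moved with the members. Summed over 13 primitive streak and mesoderm markers, the level was 10.8 to 10.9 CPM (counts scaled to library size) in WT, 773 to 776 in KO1 and 1042 to 1049 in KO2. All 11 of them that could be tested rose, where 14.9% of all genes tested were called higher. MESP1, MSGN1, HAND1 and CDX1 were at 0 in WT. TBXT, EOMES, GSC, MSGN1, HAND1, CDX1 and CDX2 passed the filter on low counts only through the PCGF6-KO libraries. These genes could therefore hardly be called lower. TBXT, the primitive streak factor, held 0 and 12 counts in WT, 3508 and 3065 in KO1 and 5515 and 4636 in KO2. Definitive endoderm markers summed to 13.9 to 14.0 CPM in WT, 155 to 164 in KO1 and 228 to 238 in KO2, with 6 of 8 higher and SOX17 at 0 in WT. Among these, SOX17, FOXA2, GATA4 and GATA6 also passed the filter only through the PCGF6-KO libraries. Both sums were higher in KO2 than in KO1, but EOMES went the other way, at 138 CPM in KO1 and 95.9 in KO2 (means, n = 2). Of the members, NKD1, NOTUM and LGR5 were higher in KO2 at an edgeR adjusted p under 0.05, and the others did not differ at that level. Whether marker sums and members vary together between the clones was not tested.

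The lists of other cell types were also higher in sum. For the calls below, 14.9% of all genes tested were called higher and 8.70% lower. Neuroectoderm markers summed to 365 to 411 CPM in WT and 645 to 767 in PCGF6-KO, with 3 of 6 higher, 1 lower and HES5 at 0 in WT. NES held most of this sum, at 277 and 322 CPM in WT and 592 to 709 in PCGF6-KO, whereas OTX2 fell from 72.0 and 72.1 CPM in WT to between 28.8 and 31.6. Amnion and surface ectoderm markers reached 10.2 to 12.1 CPM in WT and 28.5 to 34.7 in PCGF6-KO, with 3 of 5 higher and KRT14 at 0 in every library. TFAP2A, TFAP2B and ISL1, like the neuroectoderm genes LHX2 and ZIC1, passed the filter only through the PCGF6-KO libraries. Endothelial and blood markers summed to 155 to 156 CPM in WT and 470 to 507 in PCGF6-KO, with 2 of 5 higher and 1 lower. KDR made up nearly all of it, at 149.5 and 149.3 CPM in WT and 454 to 495 in PCGF6-KO, while CDH5 fell from 40 and 30 counts to between 11 and 17, and its genes had a median difference of 0.14 on the log2 scale. The part of any of these cells in the values of the 10 genes was not tested. In bulk RNA a larger number of cells that express a gene and more RNA per cell cannot be told apart.

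Some members share annotated exon sequence with other loci in GENCODE release 44 (build GRCh38), and whether the counting used strand is not given in the sources used here. RNF43, at chr17:58353676-58417595 on the minus strand, shared 4326 of its exon bases with the protein-coding locus ENSG00000285897 on its own strand, and 345 with the antisense gene TSPOAP1-AS1, which held at most 12 counts in any library. AXIN2, at chr17:65528563-65561648 on the minus strand, shared 1316 exon bases with ENSG00000266076 on the same strand. NOTUM shared 148 exon bases, LGR5 208, NKD1 67 and LGR4 13 with antisense genes, and their counts carry this uncertainty. SP5, at chr2:170715337-170718078 on the plus strand, shared no exon base with another gene, and neither did ZNRF3, while NKD2 and SP8 overlapped none.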

How the data were processed

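RNA was extracted from WT PGP1 cells and from PCGF6-KO clones KO1 and KO2, with 2 libraries each. The authors trimmed reads with Trim Galore (0.6.2), aligned them to GRCh38 with HISAT2 (2.1.0) and deposited raw counts per gene made with featureCounts, together with the gene length used here for RPKM. Annotation release, strand setting and handling of multimapping reads are not given in the sources used here. ChIP-seq samples were not analysed here.

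Genes with enough counts (filterByExpr over WT and PCGF6-KO, 17672 of 57133) were normalised by TMM and tested with edgeR (4.0.16, R 4.3.3) quasi-likelihood fits: PCGF6-KO (4) against WT (2), and a fit with 3 groups for KO1 and KO2 against WT and KO2 against KO1. P-values were adjusted by Benjamini-Hochberg over all genes tested, and calls were made under an adjusted p of 0.05 where the log2 fold change exceeded 0.6 in size. SE was derived from the F statistic. Ratio intervals are exact (95%) and cover counting error only. The 95% intervals of log2 fold changes use this SE and include the spread between libraries. Alternatives were DESeq2 (1.42.0), other normalisations and filters, the replicate number as a block and each library left out. The code was tested on simulated data.

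The 10 genes and the lists of pathway genes and markers were chosen with earlier results of these data known. The rule for named genes took all 10 members, up to 3 called genes per pathway role and direction with the largest log2 fold change, the 5 genes nearest to AXIN2 (log2 CPM, prior count 2, average at least 1), PCGF6, genes overlapping a member, and markers at 0 or leading their list. CTNNB1, AXIN1, POU5F1 and TBXT were named in addition, with their values seen. Depth limits values near 0: in WT, SP5, NOTUM and LGR5 rest on 10, 5 and 1 counts in all.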

Additional observations from a re-analysis of the deposited data

Results flagged for a closer look

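The response to the knockout differed between the clones in a direct test of KO2 against KO1 (edgeR, adjusted p under 0.05) for 3 of the 10 genes. At the same cut, 3442 of all 17672 genes tested passed. With the fold threshold, 1 of the 10 genes and 7.87% of all genes tested were called. The log2 difference, KO2 minus KO1, was 0.35 for NKD1, 0.45 for NOTUM and 1.38 for LGR5, and all 3 were higher in KO2 in both libraries.

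Over all genes tested, 3.73% were higher and 4.14% lower in KO2 past the fold threshold as well. Of the 67 other pathway genes tested, 8 were higher and 7 lower by the same rule. These are given here together with the pathway genes most changed against WT (up to 3 per role and direction) whose difference had an adjusted p under 0.05. WNT5A (0.90), WNT8A (0.77), WNT16 (1.39), WNT5B (0.46), RSPO2 (1.23), RSPO3 (1.63), FZD5 (0.30), FZD10 (0.73), LEF1 (0.42), DKK1 (0.51), DKK2 (0.86), TNFRSF19 (0.46) and BAMBI (0.75) had higher log2 values in KO2. KREMEN2 (-1.09), WIF1 (-1.04), WNT2B (-0.80), RSPO4 (-0.72), WNT10B (-0.74), FZD7 (-0.77), PORCN (-0.48), TCF7L1 (-0.78) and SFRP2 (-0.53) had lower values in KO2. DESeq2 did not call WNT2B, WNT10B or WIF1 and gave WNT16 no adjusted p. For PORCN its adjusted p was 0.145. PCGF6 itself was higher in KO2 than in KO1 by 0.90 on the log2 scale. The clones differ in their deletion and in their origin from a single cell, and these cannot be told apart here.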

How the results depend on the processing

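The count of members called stayed at 8 against WT for PCGF6-KO, KO1 and KO2 under every alternative but these. With at least 10 counts required in every library it was 5 in each, because SP5, NOTUM and LGR5 were no longer tested, and in KO2 against KO1 it was 0. Other pathway genes called were then 22 in place of 34, with fewer genes tested. With the adjusted p alone and no fold threshold, the genes called over the whole table numbered 6556 for PCGF6-KO, 8002 for KO1, 8904 for KO2 and 3442 for KO2 against KO1, in place of 4167, 4379, 5197 and 1390, and members called were 9 for KO1 (LGR4 in addition) and 3 in KO2 against KO1. DESeq2 called 888 genes in KO2 against KO1, and the cause was not tested. Without division by length the share of NKD1 rose by 33.2 percentage points in place of 55.0, and NKD1 was then the larger part in WT as well. Directions turned where values lay near 0. NKD2 in PCGF6-KO against WT was -0.11 without WT replicate 2 and -0.04 without KO1 replicate 2 (range with 1 library left out, -0.11 to 0.21). SP8 in KO2 against KO1 was 0.13 without KO1 replicate 2 (range -0.15 to 0.13), and LGR4 was -0.10 without KO1 replicate 1 and -0.08 without KO2 replicate 2 (range -0.10 to 0.22). The labels give the groups the same replicate numbers, and do not say what a number marks. Deviations of same-numbered libraries had a Pearson r across 14850 genes of 0.04 for WT and KO1, 0.06 for WT and KO2 and 0.13 for KO1 and KO2, with Spearman rho of 0.11, 0.11 and 0.23. Pearson r was over 0.1 in 1 of these 3, so the numbers were not taken to pair the libraries, though rho was over 0.1 in each. With the replicate block the genes called were 3876, 4420, 5233 and 1484 in the 4 comparisons, members called were 8, 8, 8 and 1, and other pathway genes called were 31. The block and DESeq2 each ended the calls of the receptors FZD7, FZD9 and LGR6 in PCGF6-KO against WT.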
